A study of Mus musculus with 2 samples.

Results

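The cells described here were late immature neutrophils that carried lactoferrin, chosen by measured values in the 10x single cell libraries of non-RBC bone marrow cells (BMCs) namely the share of each cell's unique molecular identifiers (UMIs, the tags that count RNA molecules) in a few genes. A cell was a member when *Camp*, *Ngp*, *Ltf*, *Lcn2*, *S100a8* and *S100a9* held at least 5% of its UMIs, *Ltf* at least 0.1%, *Retnlg* and *Mmp8* together under 0.1% and the hemoglobin genes under 1%. This rule found 605 of 6271 WT cells and 795 of 3662 Cko cells, that is, 1400 of 9933 cells. BMCs came from the hindlimbs and forelimbs of C57BL6/J mice at postnatal day 21, with 1 library from 1 WT mouse and 1 from 1 Cko mouse. In the Cko, S1P (site-1 protease, encoded by *Mbtps1*) was ablated with *Osx*-Cre, a GFP::Cre transgene driven by the *Osx* promoter, in S1P f/f mice (both alleles with floxed exon 2), and no *Osx*-Cre mouse without the floxed alleles is among these libraries. The question asked of these libraries was how the bone marrow of the Cko differs. With 1 library per genotype no difference was tested, and every interval below is a 95% interval for counting error only.

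Neutrophils mature in the marrow through stages that are recognised by the granule proteins they make. Primary granule proteins such as myeloperoxidase (*Mpo*) and neutrophil elastase (*Elane*) are made first, by dividing promyelocytes. Secondary granule proteins, among them lactoferrin (*Ltf*), an iron-binding protein, cathelicidin (*Camp*), neutrophilic granule protein (*Ngp*) and lipocalin 2 (*Lcn2*), which binds bacterial siderophores, are made at the myelocyte and metamyelocyte stages, during which division stops. Gelatinase (*Mmp9*), collagenase (*Mmp8*) and resistin-like gamma (*Retnlg*) mark the later stages. S100a8 and S100a9 form calprotectin, an abundant cytosolic protein of neutrophils.

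C/EBP factors are known regulators of the secondary granule genes, so the promoters of the defining genes are shown with the letters TTNNGCAA, a C/EBP-type motif, in capitals where they occur on either strand. The sequences are from RefSeq (GRCm38.p6), run 5′ to 3′ on the gene's strand, begin 250 bases before the annotated start and stop before the first base that GENCODE places in an exon. That of *Ltf* covers chr9:111019042-111019270 on the plus strand and holds the motif once, starting 75 bases before the start. That of *Ngp*, on the same chromosome, covers chr9:110419558-110419746 on the plus strand and holds it starting 138 bases before the start.
Ltf: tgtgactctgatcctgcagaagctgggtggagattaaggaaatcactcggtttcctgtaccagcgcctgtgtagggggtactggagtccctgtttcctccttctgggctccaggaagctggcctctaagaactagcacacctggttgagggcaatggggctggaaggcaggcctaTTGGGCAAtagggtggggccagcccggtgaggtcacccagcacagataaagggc
Ngp: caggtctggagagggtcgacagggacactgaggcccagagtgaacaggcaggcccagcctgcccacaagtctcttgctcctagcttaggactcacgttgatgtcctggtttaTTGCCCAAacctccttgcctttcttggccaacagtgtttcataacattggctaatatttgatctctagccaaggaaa
In the full 250 bases, *Ngp* had another match 11 bases before its start, *Lcn2* had 1 match and *Camp* had none. The motif occurred in 9.57% of 32817 mouse promoters of that length. A match is a string of letters and not a bound site.

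The class was checked with genes that the rule did not use, after thinning each cell to 3000 UMIs, which left out 1 WT cell. *Cebpe*, the transcription factor of the secondary granule stage, had a UMI in 93.4% of WT and 94.7% of Cko members, against 2.26% and 1.52% of the B-lineage cells of the same libraries, which served as the background from free RNA. *Ly6g*, a surface marker gained during neutrophil maturation, had a UMI in 45.7% and 53.3% of members, 2.30% and 1.88% of the cells with little *Ltf*, and 79.8% and 85.1% of the cells with *Retnlg* or *Mmp8*. *Elane* had a UMI in 24.5% of WT and 15.3% of Cko members, against 9.66% and 8.26% of B-lineage cells. Unthinned, members held a median of 6531 UMIs and 1294 genes in WT and 7436 UMIs and 1384 genes in Cko.

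Erythroid RNA differed between the libraries. Hemoglobin genes took a median of 0.314% of a member's UMIs in WT and 0.0831% in Cko, and the hemoglobin limit alone removed 52 WT cells (7.91%) and 7 Cko cells (0.873%) that met the rest of the rule. The summed level of 11 erythroid markers was 3407 UMIs scaled to 1000000 UMIs of the class (CPM) in WT members and 913 CPM in Cko members, and 3236 and 941 CPM in the B-lineage cells. B-cell markers summed to 317 and 155 CPM in members, against 9025 and 9187 CPM in B-lineage cells. Markers of other lineages reached 0.2% of the UMIs in 42 WT members (6.94%) and 21 Cko members (2.64%). Scrublet called 15 WT and 9 Cko members doublets, and these were kept. The libraries shared 28 barcode sequences, 1 of them among the members. The part of these values in the differences between the genotypes was not tested.

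Members made up 9.65% of all WT cells (8.93 to 10.4) and 21.7% of all Cko cells (20.4 to 23.1), a ratio of 2.25 (2.04 to 2.48). Among cells under the hemoglobin limit the shares were 19.4% and 25%, a ratio of 1.29 (1.18 to 1.42). Among neutrophil-stage cells, that is, those with the 6 genes at 5% and hemoglobin under 1%, the order was the opposite: 68.1% of 888 WT cells and 57.4% of 1385 Cko cells were members, a ratio of 0.843 (0.790 to 0.898). The rest of the Cko neutrophil-stage cells lay mostly in the later class, with *Retnlg* and *Mmp8* at 0.1% or more, which took 12.3% of the neutrophil-stage cells in WT and 31.0% in Cko. The earlier class, with *Ltf* under 0.1%, held 19.6% and 11.6%. This direction was not kept with a stricter limit: with hemoglobin under 0.2%, the log2 ratio among neutrophil-stage cells was 0.28 (-0.01 to 0.58), an interval that spans 0, in place of -0.25 (-0.34 to -0.16). That limit lies below the median hemoglobin share of WT members (0.314%), and it kept 50 of 605 WT members but 762 of 795 Cko members. RBCs were lysed before capture, and hemoglobin-rich cells are part of the first denominator.

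**Figure D1:**
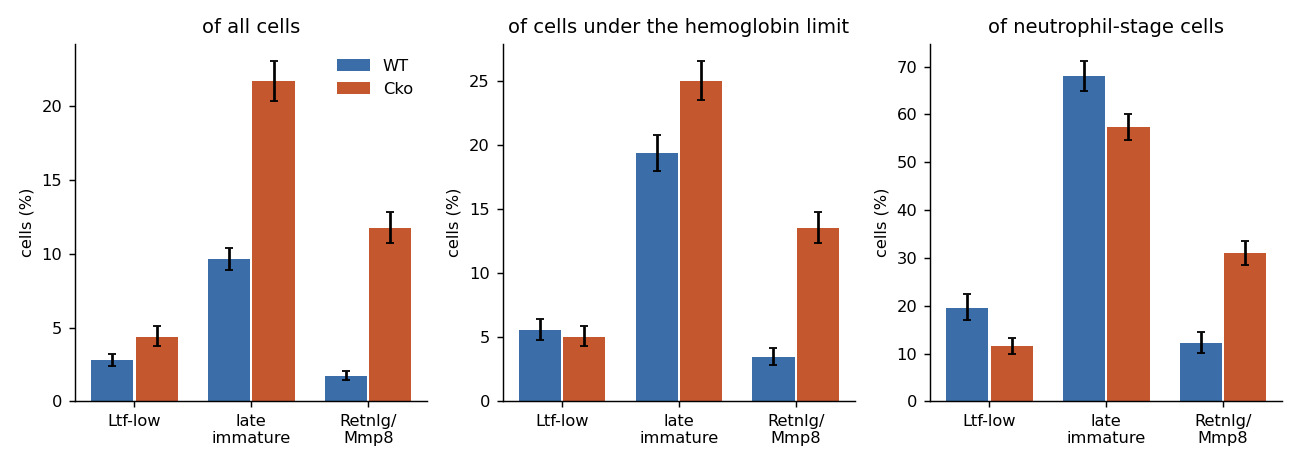
Share of cells in the Ltf-low, late immature and Retnlg/Mmp8 classes in the WT and Cko libraries, in percent of all cells (left), of cells under the hemoglobin limit (middle) and of neutrophil-stage cells (right), with bars for exact binomial 95% intervals. The late immature class was larger in Cko in the first denominators (21.7% against 9.65% and 25% against 19.4%) and smaller among neutrophil-stage cells (57.4% against 68.1%).

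The genes that chose the members are given as a description. The 6 neutrophil genes took a median of 48.2% of a WT member's UMIs and 47.9% of a Cko member's. *S100a8* was the most abundant gene of the class, at 184417 CPM in WT and 187162 CPM in Cko, followed by *S100a9* at 103709 and 111859 CPM. *Camp* stood at 71247 and 73352 CPM and *Ngp* at 63634 and 67870 CPM. *Lcn2* stood at 9107 and 10355 CPM and *Ltf* at 5847 and 6100 CPM. The genotypes thus differed by a ratio of 1.01 to 1.14 in these genes. *Ltf* ranged from 0.101% to 1.63% of a WT member's UMIs, with a median of 0.627%, and from 0.101% to 2.31% of a Cko member's, with a median of 0.611%. Around the *Ltf* limit, the nearest members lay at 0.101% in both libraries and the nearest cells outside at 0.0982% in WT and 0.0999% in Cko. Around the *Retnlg* and *Mmp8* limit the nearest members lay at 0.0954% in WT and 0.100% in Cko, and the nearest cells outside at 0.101% in both. No member lay near the 5% limit, the lowest being 8.43% in WT and 6.10% in Cko. Among the other abundant genes were *Lyz2*, which encodes lysozyme (13690 and 11400 CPM), *Chil3*, a chitinase-like secreted protein (11966 and 11250 CPM), and *Tmsb4x*, which binds actin monomers (21260 and 19415 CPM).

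Members differed among themselves along the *Ltf* level. When the 1400 cells were divided into 3 bins of *Ltf* share at 0.496% and 0.730%, *Lcn2* stood at 5943, 10136 and 12298 CPM from the lowest to the highest bin in WT and at 8031, 11249 and 12359 CPM in Cko. *Ly6g* stood at 158, 277 and 482 CPM in WT and at 228, 360 and 515 CPM in Cko. *Camp* differed less, with 63293, 76308 and 77022 CPM in WT and 72143, 74319 and 73761 CPM in Cko. Primary granule genes lay almost wholly in the lowest bin. *Elane* stood at 1470, 93.8 and 65.5 CPM in WT and at 1105, 56.7 and 26.3 CPM in Cko, and *Mpo* at 494, 21.8 and 28.0 CPM in WT and at 382, 29.7 and 23.5 CPM in Cko. The summed ribosomal protein genes stood at 137135, 69295 and 55704 CPM in WT and at 111408, 70067 and 58458 CPM in Cko. As sums over cells, the lowest bin of both libraries thus held the most RNA of the preceding stage. For the primary granule genes these sums rest on few cells. In the whole class 10 WT and 7 Cko cells held 0.5 or more of the *Elane* UMIs, and 5 and 6 of the *Mpo* UMIs.

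Across thinned members the Spearman rho of *Ltf* was 0.54 with *Lcn2*, 0.53 with *Lyz2*, 0.52 with *Ngp* and 0.13 with *Camp* over 604 WT cells, and 0.41, 0.42, 0.41 and 0.01 over 795 Cko cells. With the ribosomal protein genes it was -0.55 in WT and -0.38 in Cko, and with the primary granule list -0.39 and -0.30. The cells of each correlation came from 1 library, and all levels are parts of the same 3000 UMIs, so these values are descriptions.

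Members also differed in cycling genes. The G2/M list (genes of chromosome segregation and mitosis such as *Top2a*, *Cdk1* and *Cenpa*) gave a median of 28 UMIs per thinned WT member and 31 per Cko member, 24 and 23 in Ltf-low cells and 8 in the Retnlg/Mmp8 cells of both libraries. Without *Hmgb2*, a chromatin protein that is also abundant outside division, the order of the genotypes in members was the opposite, with medians of 16 in WT and 14 in Cko, 15 and 13 in Ltf-low cells and 2 and 1 in Retnlg/Mmp8 cells. The S phase list (replication genes such as the *Mcm* genes) gave a median of 3 UMIs in members of both libraries, against 8 and 7 in Ltf-low cells. With *Hmgb2* left out of the list and a limit of 6 UMIs per thinned cell, chosen after the distribution was seen, 150 of 604 WT members (24.8%) and 269 of 795 Cko members (33.8%) lay under the limit, a ratio of 1.36 (1.15 to 1.61). In Ltf-low cells 16.1% and 17.5% lay under it, in Retnlg/Mmp8 cells 73.4% and 88.8%, and in B-lineage cells 9.03% and 22.1%, so that the share was also higher in Cko outside the neutrophils. Members within 2 UMIs of the limit numbered 55 in WT and 63 in Cko. Members under the limit were smaller, with medians of 4792.5 and 5802 UMIs against 7199 and 8278 UMIs in the rest. A level of cell cycle RNA does not by itself show that a cell was dividing.

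**Figure D2:**
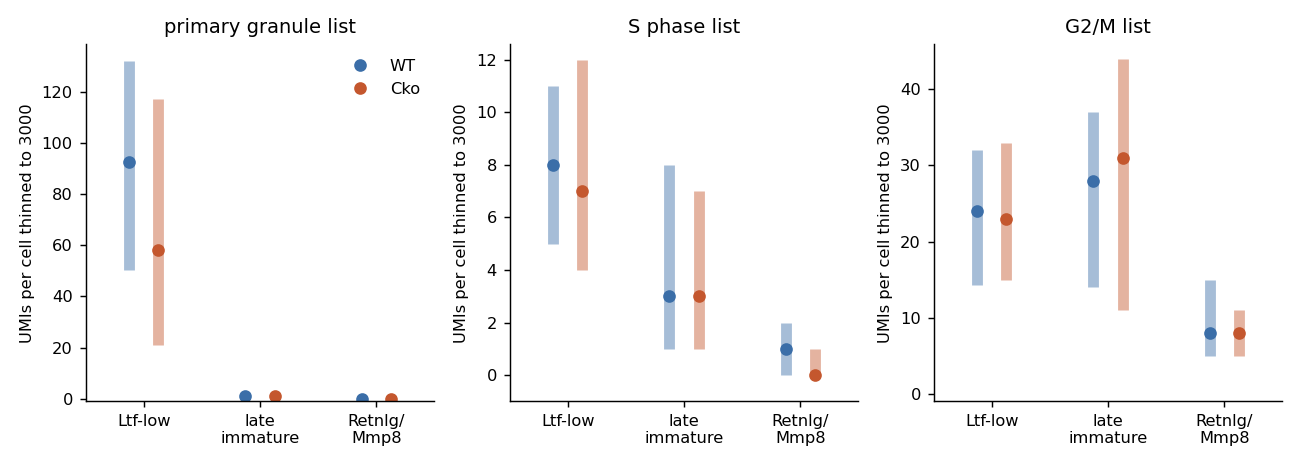
UMIs per cell, after thinning each cell to 3000 UMIs, of the primary granule, S phase and G2/M lists in the Ltf-low, late immature and Retnlg/Mmp8 classes of each library, with points for medians and bars from the lower to the upper quartile. Late immature cells had a median of 1 primary granule UMI, but medians of 28 (WT) and 31 (Cko) G2/M UMIs, against 8 in both Retnlg/Mmp8 classes. The G2/M list plotted includes *Hmgb2*, without which the medians of members were 16 (WT) and 14 (Cko).

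The parts also differed in other genes, and in those of the G2/M list by the choice of the split. All 26 tested genes of that list, *Hmgb2* included, were at least 2-fold lower under the limit in both libraries. The counts that follow are over all genes with enough UMIs and not over genes outside the cycle. Of 2899 genes with at least 100 UMIs in the WT comparison, 0.931% were at least 2-fold higher and 12.8% at least 2-fold lower under the limit, and of 3409 in Cko 0.821% and 9.45%. *Ifitm6*, an interferon-induced transmembrane family member, stood at 3297 CPM under the limit and 1260 CPM above it in WT, and at 4543 and 1812 CPM in Cko. *S100a6*, a calcium-binding protein, stood at 466 and 160 CPM in WT and at 811 and 310 CPM in Cko. *Lyz2* stood at 21888 and 11852 CPM in WT and at 17025 and 9241 CPM in Cko, *Ly6g* at 568 and 230 CPM in WT and at 535 and 284 CPM in Cko. Some replication genes were also higher under the limit, among them *Cdc6*, which loads the replicative helicase (39.9 and 10.9 CPM in WT, 21.2 and 7.72 CPM in Cko), and *Gins2*, a helicase subunit (59.8 and 19.9 CPM in WT, 33.0 and 12.2 CPM in Cko). *Spc25*, a kinetochore protein that was not on the list, stood at 27.4 and 192 CPM in WT and at 15.6 and 180 CPM in Cko. *H2afx*, a histone variant, stood at 79.7 and 750 CPM in WT and at 77.1 and 801 CPM in Cko. *Ltf* itself stood at 7261 and 5531 CPM in WT and at 6808 and 5829 CPM in Cko.

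The class was then set beside the neutrophil-stage cells with *Ltf* under 0.1% (174 WT and 160 Cko cells) within each library. Primary granule genes were the lowest. *Elane* stood at 644 CPM in WT members and 16914 CPM in WT Ltf-low cells, a ratio of 0.0381 (0.0366 to 0.0396), and at 439 and 11368 CPM in Cko, a ratio of 0.0387. *Mpo* stood at 216 and 5118 CPM in WT and at 160 and 4562 CPM in Cko. *Prtn3* (proteinase 3) and *Ctsg* (cathepsin G), serine proteases of the same granules, had ratios of 0.0759 and 0.0541 in WT and 0.0570 and 0.0467 in Cko. *Srgn*, the proteoglycan that packs granule proteases, had ratios of 0.0561 and 0.0407. *Sdf2l1*, a chaperone-associated protein of the endoplasmic reticulum, had ratios of 0.110 and 0.102.

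At the other end stood *Ly6g*, with 292 CPM in members and 11.3 CPM in Ltf-low cells of WT, a ratio of 25.8 (17.0 to 41.4), and 354 and 13.5 CPM in Cko, a ratio of 26.2 (18.1 to 39.5). *Ifitm6* had ratios of 13.4 in WT and 7.48 in Cko, and *Stfa3*, a stefin A cysteine protease inhibitor, of 10.4 and 11.4. *Cd177*, a neutrophil surface glycoprotein, had ratios of 7.15 and 5.69, *Chil1* of 7.22 and 5.91, and *Orm1*, an acute phase glycoprotein, of 6.95 and 5.88. *Padi4*, which citrullinates histones in neutrophils, had ratios of 4.21 and 4.10.

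Leaving out the 8 rule genes and the hemoglobin genes, 110 of 3763 genes (2.92%) were at least 2-fold higher in WT members and 658 (17.5%) at least 2-fold lower, and 120 (2.96%) and 883 (21.8%) of 4049 genes in Cko. The median log2 ratio over all genes was -0.44 in WT and -0.48 in Cko, and with the rule, hemoglobin and stefin A genes taken out of the denominator the counts became 315 higher and 135 lower in WT and 399 and 233 in Cko. Relative to this shift, ribosomal protein genes (median log2 ratios of -1.25 and -1.46, with 82 of 92 and 88 of 94 at least 2-fold lower) and endoplasmic reticulum chaperones (-1.37 and -1.14, with 12 and 10 of 17 lower) were still below the other genes. The secondary granule genes outside the rule had medians of 1.40 and 1.48, and 7 of 12 were at least 2-fold higher in each library. The G2/M list stood near 0, with medians of 0.04 and -0.06 and none of 26 genes past 2-fold.

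Against the later cells with *Retnlg* or *Mmp8* (109 WT and 430 Cko cells), 138 of 3135 genes (4.40%) were at least 2-fold higher and 176 (5.61%) at least 2-fold lower in WT members, and 433 (11.3%) and 195 (5.08%) of 3838 in Cko. With the other denominator the WT counts became 216 and 116, and the Cko counts 447 and 183. *Fcnb*, a ficolin made by immature neutrophils, stood at 1548 CPM in WT members and 310 CPM in the later cells, a ratio of 5.00 (4.28 to 5.86), and at 1234 and 241 CPM in Cko, a ratio of 5.12 (4.68 to 5.6). Most of the other genes at this end belong to the cell cycle: *Spc25* had ratios of 3.79 and 3.64, *Spc24*, its partner at the kinetochore, of 3.13 and 4.45, *Rrm2*, a subunit of ribonucleotide reductase, of 2.83 and 4.61, and *Cdk1*, the mitotic kinase, of 2.57 and 4.31. In all, 13 of 26 G2/M genes were at least 2-fold higher in WT members and 25 of 26 in Cko members, and 3 of 20 and 21 of 21 S phase genes. The difference between the libraries in these counts was not tested, and the later class of WT held the fewest cells.

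Genes of later neutrophils were lower in members. *Mmp9* stood at 56.3 CPM in WT members and 449 CPM in the later cells, a ratio of 0.125 (0.105 to 0.150), and at 107 and 755 CPM in Cko, a ratio of 0.142 (0.130 to 0.155). *Ccl6*, a chemokine, had ratios of 0.0474 and 0.0927, *S100a6* of 0.110 and 0.155, and *Samhd1*, which breaks down deoxynucleotides, of 0.165 and 0.205. *Slfn1*, which is known from growth arrest of lymphocytes, had ratios of 0.152 and 0.167. *Elane* went opposite ways, with 644 CPM in members and 1833 CPM in later cells of WT, a ratio of 0.351, and 439 and 137 CPM in Cko, a ratio of 3.21. In the WT later class 7.34% of cells held 20 or more primary granule UMIs of 3000, and 0.930% in Cko.

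**Figure D3:**
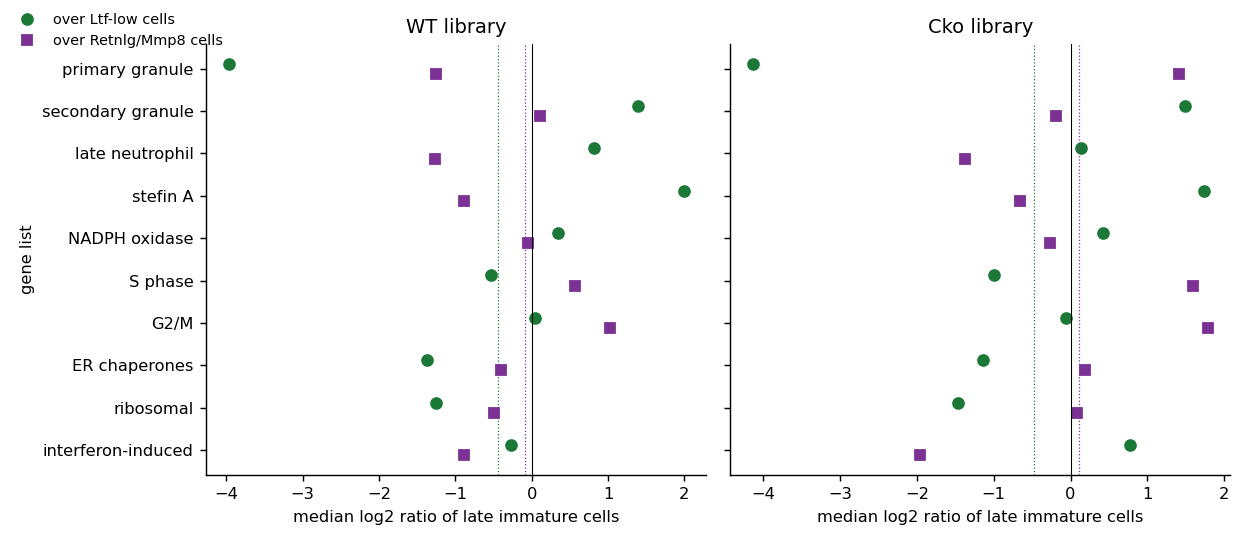
Median log2 ratio of late immature cells over Ltf-low cells (circles) and over Retnlg/Mmp8 cells (squares) for 10 gene lists in the WT and Cko libraries, with dotted lines at the median of all genes tested (-0.44 and -0.48 against Ltf-low cells, -0.09 and 0.11 against Retnlg/Mmp8 cells). The primary granule list was at -3.96 and -4.13 against Ltf-low cells, but at -1.25 in WT and 1.41 in Cko against Retnlg/Mmp8 cells.

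Between the genotypes, 4249 genes had at least 100 UMIs over the members of both libraries. Of these 42 (0.988%) were at least 2-fold higher in Cko and 77 (1.81%) at least 2-fold lower, with a median log2 ratio of -0.10. With the other denominator the counts were 49 and 57. Among the 12 highest were 4 stefin A genes, described below, and *Cap1*, a cyclase-associated protein that recycles actin monomers. *Cap1* stood at 34.8 CPM in WT and 186 CPM in Cko, a ratio of 5.36 (4.52 to 6.38), and it had a UMI in 128 of 605 WT members and 590 of 795 Cko members. Its ratio was 4.67 in Ltf-low, 6.15 in Retnlg/Mmp8 and 4.96 in B-lineage cells, so that the difference was found in every class examined. *H1f0*, a linker histone, stood at 88.8 and 238 CPM, a ratio of 2.68 (2.4 to 3.0). Its ratio was 3.18 in Ltf-low, 2.09 in Retnlg/Mmp8 and 1.34 in B-lineage cells. Among members it was lower under the G2/M limit than above it, at 34.9 and 101 CPM in WT and at 80.4 and 299 CPM in Cko. *Ada* (adenosine deaminase), *H2-T23* (a non-classical MHC molecule) and *Epsti1* (an interferon-induced gene) stood at 8.70, 6.87 and 13.5 CPM in WT and at 25.4, 19.7 and 37.8 CPM in Cko. *Fos*, an immediate early transcription factor, had a ratio of 3.15, but 3 cells held 0.5 or more of its UMIs in each library. *Rps10-ps1* and *Rps18-ps3* are processed pseudogenes whose reads can come from the parent genes, so their ratios of 2.86 and 2.77 are uncertain.

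Most of the lowest ratios came from genes of other lineages in a few WT members. *Pf4*, the platelet chemokine, stood at 47.6 CPM in WT and 3.72 CPM in Cko, and 1 WT cell held 78.4% of its WT UMIs. *Car2*, an erythroid carbonic anhydrase, stood at 165 and 13.5 CPM, and 6 WT cells held 0.5 or more of its UMIs. *Prdx2*, *Alad*, *Minpp1*, *Pla2g12a*, *Ctse*, *Blvrb*, *Hspe1* and *Ngfrap1* had ratios from 0.151 to 0.273. All 8 erythroid markers with enough UMIs were at least 2-fold lower in Cko (1.81% of all genes), as the hemoglobin RNA above was in B-lineage cells. Without members in which markers of other lineages reached 0.2% of UMIs, the ratio of *Pf4* was 0.425 and that of *Prdx2* 0.336, and 25 genes in place of 77 were at least 2-fold lower, of which 23 were among the 77. Of the 42 higher genes, 35 remained among 45. *Prg2*, the eosinophil major basic protein, was an example in the other direction, since 859 of its 871 Cko UMIs lay in 1 cell.

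**Figure D4:**
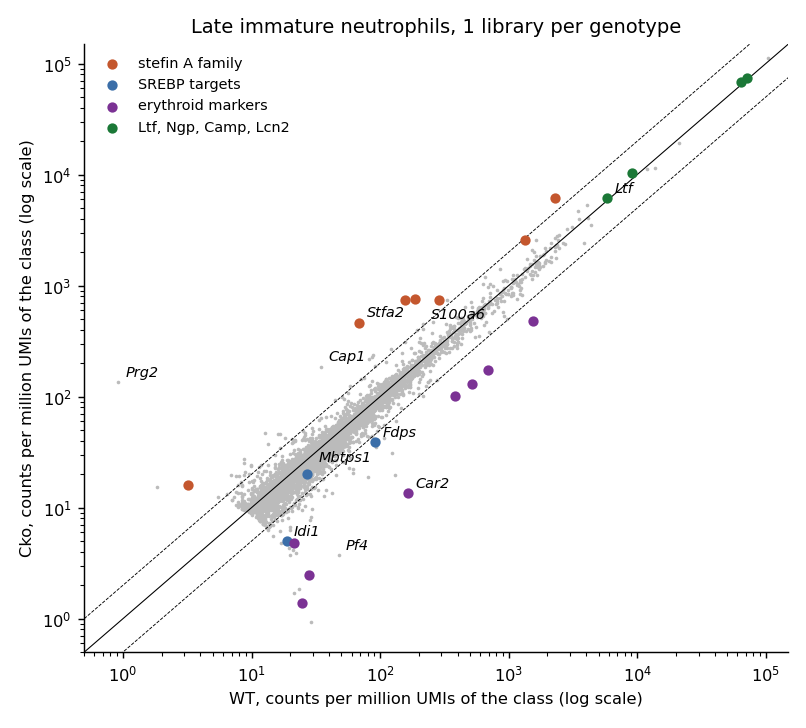
Level of each gene with at least 100 UMIs over both libraries in late immature neutrophils of WT (horizontal axis) and Cko (vertical axis), in CPM of the class on log scales, with the line of equality, dashed lines at 2-fold and 4 gene groups in colour. The stefin A genes lie above equality and the erythroid markers below it, while *Ltf*, *Ngp*, *Camp* and *Lcn2* lie close to it with ratios of 1.03 to 1.14.

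*Mbtps1* itself stood at 29.3 CPM in WT members (128 UMIs) and 23.2 CPM in Cko members (150 UMIs), a ratio of 0.793 (0.622 to 1.01). The deletion takes exon 2, away from the 3′ end that these libraries tag, so this value does not check the ablation, and *Sp7*, which encodes Osx, was listed in WT alone and had no UMI in the members. Genes downstream of S1P were examined as 2 lists, since S1P cleaves the SREBPs, which activate sterol and fatty acid synthesis, and ATF6, which activates chaperones of the endoplasmic reticulum. Of 31 SREBP targets 9 were listed in both libraries, and their sum was 167 CPM in WT members and 74.5 CPM in Cko members, a ratio of 0.447 (0.398 to 0.502). Of the 3 targets with at least 100 UMIs, *Idi1* (isopentenyl diphosphate isomerase) had a ratio of 0.264 (0.170 to 0.402), *Fdps* (farnesyl diphosphate synthase) of 0.421 (0.358 to 0.494) and *Acly* (ATP citrate lyase) of 0.752 (0.581 to 0.974). These did not rest on few cells: *Idi1* had a UMI in 74 WT and 31 Cko members, and without members carrying other lineage markers the ratios of *Idi1* and *Fdps* were 0.267 and 0.400. The sum of the list stood at 359 and 183 CPM in Ltf-low cells, 176 and 75 CPM in Retnlg/Mmp8 cells and 240 and 176 CPM in B-lineage cells. Another 8 targets, among them *Hmgcs1*, *Fdft1*, *Sqle* and *Msmo1*, were listed in WT alone, 2 in Cko alone and 12 in neither. A gene was listed only where a cell of the library reached 4 of its UMIs, and the Cko library had fewer cells, so a gene that was not listed is not taken as absent.

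Of 17 endoplasmic reticulum chaperones and related genes, none was 2-fold apart between the genotypes, and the intervals of 11 lay below equality and that of 1 above. Over all 4249 genes, 24.9% of intervals lay below equality and 10.5% above. Their sum was 1022 CPM in WT and 814 CPM in Cko members, a ratio of 0.796 (0.765 to 0.829). *Hspa5* (BiP) stood at 82.6 and 60.9 CPM, *Pdia6* (a disulfide isomerase) at 57.7 and 32.2 CPM and *Sdf2l1* at 35.5 and 20 CPM, while *Atf4*, a stress transcription factor, stood at 40.5 and 51.6 CPM. The sum of this list stood at 3245 and 2072 CPM in Ltf-low, 1403 and 706 CPM in Retnlg/Mmp8 and 1942 and 1918 CPM in B-lineage cells.

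The stefin A family, a cluster of genes on chromosome 16 that encode small cytosolic inhibitors of cysteine proteases such as cathepsins, was higher in Cko as a group. The 8 of 10 members listed in both libraries summed to 4352 CPM in WT and 11438 CPM in Cko members, a ratio of 2.63 (2.59 to 2.67). *BC100530* stood at 2301 and 6135 CPM, a ratio of 2.67, and *Stfa1* at 1348 and 2585 CPM, a ratio of 1.92. *Stfa2* stood at 69.1 and 464 CPM, a ratio of 6.71 (5.96 to 7.58), *Stfa3* at 155 and 741 CPM, a ratio of 4.78, and *Stfa2l1* at 188 and 758 CPM, a ratio of 4.03. *Gm5483* stood at 286 and 735 CPM, a ratio of 2.57. In all 6 of 7 members with 100 UMIs were at least 2-fold higher (0.988% of all genes), and the median log2 ratio was 2.01, against -0.10 over all genes. In Ltf-low cells the family summed to 1767 CPM in WT and 6467 CPM in Cko, and in Retnlg/Mmp8 cells to 4377 and 11209 CPM. B-lineage cells held 35.5 and 130 CPM of it, so that the sum was higher in Cko in every class examined.

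**Figure D5:**
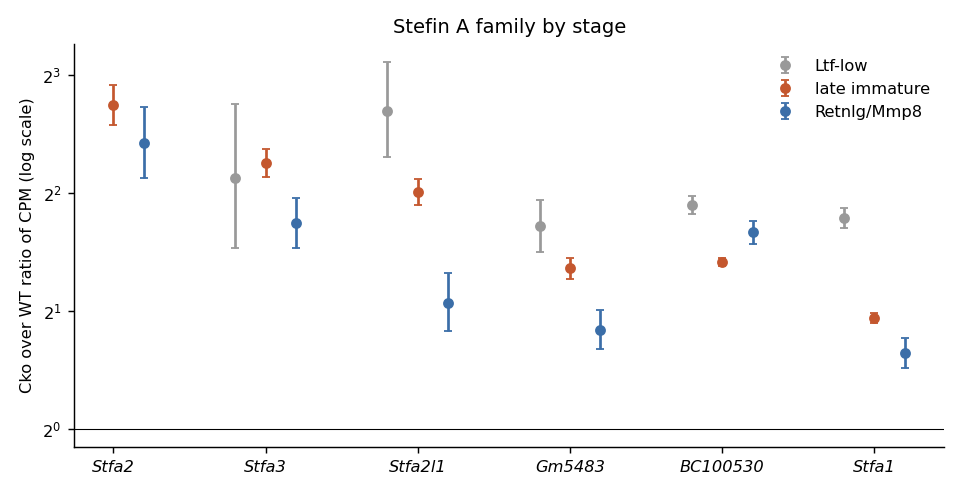
Ratio of Cko over WT, on a log scale, of 6 stefin A genes in Ltf-low, late immature and Retnlg/Mmp8 cells, with bars for 95% counting intervals. All ratios shown lie above 1; *Stfa2* has no Ltf-low point because it had no UMI in the WT cells, where 3 counts would be 1.54 CPM, against 19.3 CPM in Cko.

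These genes resemble each other, so reads can be shared or lost. The 50-base windows of annotated coding transcripts were compared among *Stfa1*, *Stfa2*, *Stfa2l1*, *Stfa3*, *Gm5483*, *BC100530* and *BC117090*. Of these windows, 31.8% of *BC100530* and 14.7% of *Stfa2* also occurred in another gene compared, and none of *Gm5483* and *Stfa3*. The members *2010005H15Rik*, *Gm5416* and *Csta1* were not compared. Within this comparison the order by ratio is firmer for *Stfa3* and *Gm5483* than for the others compared. Of the 4 members with a RefSeq promoter, *Stfa1* held the C/EBP letters in the 250 bases before its start and *Stfa2*, *Stfa2l1* and *Stfa3* did not.

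The stefin RNA was not spread evenly over the members. At 3000 UMIs per cell, 44.2% of WT members and 71.4% of Cko members had a UMI of the family, and 13.7% and 31.4% had 20 or more, whereas 0% of WT and 0.506% of Cko B-lineage cells had 20 or more. In WT 18 of 604 cells held 0.5 or more of the family's UMIs, and in Cko 60 of 795. The interval of the summed ratio takes no account of this concentration. Among cells with 20 or more family UMIs, *BC100530* was found in 98.8% in WT and 97.2% in Cko, *Stfa1* in 96.4% and 82.4%, and *Stfa2* in 28.9% and 60.4%. Over the 15 pairs of members, the Spearman rho across cells was between 0.33 and 0.67 in WT and between 0.39 and 0.69 in Cko.

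The ratio of the family varied within the class. From the lowest to the highest *Ltf* bin, the family stood at 5718, 4125 and 2776 CPM in WT and at 12428, 9984 and 11939 CPM in Cko, with ratios of 2.17, 2.42 and 4.30. Under the G2/M limit it stood at 2705 CPM in WT and 15285 CPM in Cko, and at or above the limit at 4727 and 9962 CPM. Across thinned cells its Spearman rho with the G2/M list, *Hmgb2* included, was 0.02 in WT and -0.10 in Cko. In WT the family also differed with the hemoglobin share. The 50 WT members under 0.2% hemoglobin had 8928 CPM, of which 4 cells held 0.5 or more, and the 762 Cko members under 0.2% had 11295 CPM, so that the log2 ratio of the sum was 0.34 there and 1.39 in the whole class, and the median over its genes 1.13 and 2.01. The 425 WT members between 0.2% and 0.4% hemoglobin had 4018 CPM, and the 32 Cko members there had 13057 CPM, of which 2 cells held 0.5 or more. The 130 WT members between 0.4% and 1% had 3033 CPM, and the median UMIs per cell of these WT groups were 7894.5, 7095 and 4785. The part of hemoglobin in the ratio was not tested.

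Other groups of neutrophil genes differed less. Of the 12 secondary granule genes outside the rule, *Itgb2l*, a beta-2-like integrin, was at least 2-fold higher in Cko (122 and 266 CPM, a ratio of 2.19), *Orm1* had a ratio of 1.84, and *Slpi*, a secreted protease inhibitor, of 1.64, while *Lyz2* had a ratio of 0.833 and *Fcnb* of 0.797. Of 11 later-stage genes 3 were at least 2-fold higher in Cko (0.988% of all genes), namely *Fpr2*, a formyl peptide receptor (90.6 and 190 CPM), *Ccl6* (8.01 and 19.4 CPM) and *Wfdc17* (1.83 and 15.5 CPM, from 8 and 100 UMIs). *Mmp9* had a ratio of 1.90 and *Cxcr2*, the receptor that draws neutrophils out of the marrow, of 1.54. *S100a6* stood at 217 and 449 CPM, a ratio of 2.07. These genes of the later stage were also higher in the later cells than in members. The rule set a ceiling on *Retnlg* and *Mmp8*, and below it these stood at 71.6 and 12.8 CPM in WT and at 143 and 46.8 CPM in Cko.

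Primary granule genes were lower in Cko, with a summed ratio of 0.731 (0.708 to 0.754). Intervals lay below equality for 5 of 6 genes (24.9% of all genes), and none was past 2-fold. The median log2 ratio was -0.54, or -2.31 with hemoglobin under 0.2%, a limit that kept 50 of 605 WT members. *Elane* stood at 644 and 439 CPM, but 10 WT and 7 Cko cells held 0.5 or more of its UMIs. Of the 6 subunits of the NADPH oxidase, which makes superoxide, none was past 2-fold and 4 had intervals above equality (10.5% of all genes), among them *Cyba* (2361 and 2808 CPM) and *Ncf4* (637 and 765 CPM). Of 14 actin genes *Cap1* was the only one past 2-fold, with *Actb* at 3873 and 2442 CPM and *Pfn1* (profilin) at 1520 and 2108 CPM. Of 22 S phase genes the intervals of 14 lay below equality, and of 26 G2/M genes those of 16 (24.9% of all genes), with *Hmgb2* alone above it (4069 and 5371 CPM). The G2/M list therefore had a median log2 ratio of -0.19 and a summed ratio of 1.07. Among transcription factors *Cebpe* (1055 and 1157 CPM) and *Spi1*, which encodes PU.1 (423 and 470 CPM), had ratios of 1.10 and 1.11, and *Gfi1*, a repressor of the granulocyte lineage, of 0.632 (24.0 and 15.2 CPM). Of 7 interferon-induced genes *Rtp4* was at least 2-fold higher (8.70 and 19.7 CPM) and *Bst2* at least 2-fold lower (19.2 and 9.29 CPM). Over all genes these shares were 0.988% and 1.81%. The intervals of 4 of the 7 lay below equality and that of 1 above, against 24.9% and 10.5% of all genes. Their median log2 ratio was -0.40, against -0.10 over all genes, and -0.06 with hemoglobin under 0.2%. The 14 interferon-induced genes listed in both libraries had a summed ratio of 0.735 (0.703 to 0.768).

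Of the remaining lists, glycolysis enzymes had 0 of 11 genes past 2-fold and a median log2 ratio of 0.05, cathepsins 0 of 6 and -0.16, and lysosomal enzymes 0 of 10 and -0.03, which became 0.04 with the other denominator. Over all genes 0.988% were at least 2-fold higher and 1.81% at least 2-fold lower. The ribosomal list had 5 of 94 at least 2-fold higher and 1 lower, with a median of -0.17. Among the higher were the processed pseudogenes *Rps10-ps1* and *Rps18-ps3*, whose ratios are uncertain. The mitochondrial list had 2 of 12 at least 2-fold lower, with a median of -0.69. Immediate early genes had *Fos* as the 1 of 8 past 2-fold, and a median of 0.23.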

How the data were processed

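The authors lysed red cells, prepared 10x Chromium 3′ v2 libraries and deposited whole-number UMI counts per gene and barcode, not normalized. Per the submitters' processing notes, Cell Ranger and GRCm38 were used. Only barcodes with at least 200 genes were kept, giving the 6271 WT and 3662 Cko cells above. The matrices held 56382459 and 34447224 UMIs. They listed 7181 and 6735 symbols, 6001 of them shared, and only shared symbols were compared. Class levels are counts summed over a class and scaled to 1000000 of its UMIs. B-lineage cells had at least 0.3% of UMIs in B-cell genes such as *Cd79a*, *Cd79b* and *Vpreb1* and under 5% in the neutrophil genes. The ribosomal protein genes were taken by symbols that start with Rpl or Rps and a digit, so pseudogenes are among them.

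A gene needed 100 UMIs over the cells compared. A difference was called at 2-fold. Intervals are exact binomial for shares and exact conditional Poisson-based for ratios of CPM, while ratios of shares use a log-normal interval. The intervals of CPM ratios were tried on simulated Poisson counts, the model that they assume. The simulation had no concentration of UMIs in few cells, so it cannot show how the intervals perform on these data. Genes were named when they belonged to the rule or a list, were among the 12 highest or lowest ratios between genotypes or the 10 at each end of each stage comparison (by the less extreme library, with 20 UMIs in each), or were among the 10 most abundant, plus *Mbtps1* and *Sp7*. The G2/M split, with 12 at each end, was added after the data were seen. The members and lists were chosen with earlier results of these data known. Scrublet (scanpy 1.11.5, expected rate 5%) marked 127 WT and 51 Cko cells as doublets, none of which were removed. Alternatives to each limit, the denominator and the UMI minimum were computed. Python 3.11.15, numpy 2.4.6, pandas 2.3.3, scipy 1.17.1 and matplotlib 3.10.9 were used. Gene positions are from GENCODE. Some genes are not reported here.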

Additional observations from a re-analysis of the deposited data

Results flagged for a closer look

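*Elane* was lower in late immature neutrophils than in Retnlg/Mmp8 cells of WT (a ratio of 0.351) and higher in Cko (a ratio of 3.21). The stefin A family was lower in members under the G2/M limit than in the rest in WT (a ratio of 0.572) and higher in Cko (a ratio of 1.53). In both cases the libraries went opposite ways, and the difference between them was not tested.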

How the results depend on the processing

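With 1 library per genotype, no value has a replicate error, depth limits genes under 100 UMIs, and libraries, mice and genotypes cannot be told apart. No paired analysis was possible because each genotype has 1 library, so no replicate could be left out either. Of 165 values recomputed, 114 stayed within their interval or within 1.5 times their count and 51 moved, and the cause of these moves was not tested except that other UMI minimums change the number of genes compared. Cells with markers of other lineages and the parts of the G2/M split were left out as alternatives chosen after seeing the data.

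The limit of 0.2% hemoglobin used below kept 50 of 605 WT members and 762 of 795 Cko members. The log2 ratio of Cko over WT in the share of all cells (1.17) was 4.71 with hemoglobin under 0.2%. That among cells under the hemoglobin limit (0.37) was 1.06 with no limit and 0.90 under 0.2%. That among neutrophil-stage cells (-0.25) was -0.15 with *Retnlg* and *Mmp8* under 0.2% and changed sign to 0.28 (interval -0.01 to 0.58) with hemoglobin under 0.2%. The log2 ratio of the stefin A family (1.39) was 1.43 with *Ltf* at least 0.05%, 1.42 with the 6 genes at least 10%, 1.42 with *Retnlg* and *Mmp8* under 0.2%, 1.53 with no hemoglobin limit, 0.34 with hemoglobin under 0.2%, 1.35 without called doublets, 1.46 with the other denominator, 1.30 as a mean of shares per cell, 1.44 with *Ltf* bins weighted equally, 1.35 without cells carrying other lineage markers, 2.498 under the G2/M limit and 1.08 at or above it.

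Genes at least 2-fold higher in Cko (42) numbered 145 with hemoglobin under 0.2%, 23 at 300 UMIs and 69 at 20 UMIs. Genes at least 2-fold lower (77) numbered 40 with *Ltf* at least 0.2%, 176 with no hemoglobin limit, 33 without called doublets, 21 at 300 UMIs, 309 at 20 UMIs and 25 without cells carrying other lineage markers.

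Against Ltf-low cells, the WT counts higher and lower (110 and 658) were 25 and 172 with hemoglobin under 0.2%, 315 and 135 with the other denominator, 53 and 351 at 300 UMIs and 190 and 1057 at 20 UMIs. The Cko counts (120 and 883) were 399 and 233 with the other denominator and 75 and 443 at 300 UMIs, and 1413 were lower at 20 UMIs. Against Retnlg/Mmp8 cells, the WT counts (138 and 176) were 62 and 74 with hemoglobin under 0.2%, 216 and 116 with the other denominator, 53 and 62 at 300 UMIs and 312 and 584 at 20 UMIs, and 222 were higher with the 6 genes at least 10%. The Cko counts (433 and 195) were 202 and 94 at 300 UMIs, and 380 were lower at 20 UMIs. Of 51 medians of lists, 49 kept their sign.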
